A study of Mus musculus with 6 samples.

Results

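The polyamine synthesis and breakdown genes described here are Odc1, Srm, Sms, Amd1, Sat1, Oaz1, Oaz2, Azin1, Paox and Smox. They were taken by name as genes of one pathway, at a time when earlier results of these data were known, and 6 of these 10 were measured, out of 19938 genes in all. A gene counted as measured where the array had a probe set annotated to that gene symbol alone, and its brightest such probe set over all 6 arrays stood for it. Sms and Oaz1 each had 2 probe sets, all of them annotated to a further gene as well, so no value is given for either. Amd1 and Paox had 0 probe sets in the annotation and were not analysed here. No filter on low signals was applied, so none of the 6 was kept or lost because of its level.

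The data were 6 Affymetrix arrays of RNA from 4T1 cells, a mouse mammary carcinoma line grown in culture. The TKI258 group was 3 dishes kept for 16 h in medium with 10% serum and 500 nM TKI258, and the DMSO group was 3 dishes kept for the same 16 h in that medium with the vehicle DMSO alone. All dishes had been seeded with 750000 cells and grown for 24 h beforehand. TKI258 is the kinase inhibitor dovitinib, which acts on growth factor receptors such as those for FGF, and the comparison shows which mRNAs it leaves at another level. The values describe a single line at a single dose and time, and the samples are called biological replicates, which the series' design text gives as individual dishes, with no word on separate days or thaws. The p-values therefore measure the spread between dishes. Signals are log2 values as deposited, and a log2 change is TKI258 minus DMSO.

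Polyamines are small, positively charged molecules that bind nucleic acids and that growing cells need in quantity. Ornithine decarboxylase (Odc1) makes putrescine from ornithine in the rate-limiting step, and spermidine synthase (Srm) and spermine synthase (Sms) add aminopropyl groups that the decarboxylase Amd1 prepares from S-adenosylmethionine. Sat1 acetylates spermidine and spermine, Paox oxidises the acetylated forms, and Smox oxidises spermine directly. The antizymes Oaz1 and Oaz2 bind ornithine decarboxylase and send it to the proteasome, while Azin1, a relative of the enzyme without its activity, holds antizymes back. Antizyme synthesis needs a ribosomal frameshift that polyamines favour, and Sat1 is also controlled in translation and protein stability, so an mRNA level does not give the amount of enzyme.

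The starts of the genes that changed are shown because the rate-limiting enzyme gene fell while the acetyltransferase and antizyme genes rose. RefSeq's promoter table held 8 of the 10 genes, without Srm and Azin1. The 250 bases before the start of Odc1, Sat1 and Oaz2 (build GRCm38.p6) are given 5′ to 3′ on the strand of the gene. Odc1 lies at chr12:17544623-17544872 on the plus strand, Sat1 at chrX:155216450-155216699 on the minus strand and Oaz2 at chr9:65676298-65676547 on the plus strand. Capitals mark GGGCGG on either strand (read as CCGCCC on the other), the core of the GC box.
Odc1: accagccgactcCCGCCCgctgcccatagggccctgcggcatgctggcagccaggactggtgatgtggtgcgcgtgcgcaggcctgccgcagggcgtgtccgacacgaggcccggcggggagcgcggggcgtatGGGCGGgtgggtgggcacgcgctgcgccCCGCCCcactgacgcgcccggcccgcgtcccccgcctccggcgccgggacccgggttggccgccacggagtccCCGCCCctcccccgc
Sat1: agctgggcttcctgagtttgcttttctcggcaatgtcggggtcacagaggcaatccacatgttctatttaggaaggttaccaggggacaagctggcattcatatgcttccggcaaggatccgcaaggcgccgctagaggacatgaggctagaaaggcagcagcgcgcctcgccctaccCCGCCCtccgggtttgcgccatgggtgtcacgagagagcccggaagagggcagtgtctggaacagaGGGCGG
Oaz2: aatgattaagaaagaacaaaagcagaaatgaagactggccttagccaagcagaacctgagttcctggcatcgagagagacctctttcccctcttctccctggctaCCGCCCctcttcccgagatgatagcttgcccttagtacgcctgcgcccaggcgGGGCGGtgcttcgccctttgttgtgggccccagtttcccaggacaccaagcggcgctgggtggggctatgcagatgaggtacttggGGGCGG
The motif occurred 4 times in the Odc1 stretch, 2 times in that of Sat1 and 3 times in that of Oaz2, and 80.0% of the Odc1 bases were G or C, against 59.6% for Sat1 and 58.0% for Oaz2. The window of Smox, which did not pass the test described below, had the motif 6 times at 68.0% G or C, and that of Oaz1 0 times. The median share of G or C over all windows was 52.4%. Of the 8 genes, 7 held the motif before at least 1 start, while 35.4% of all 27025 genes in the table did. The E-box CACGTG, a sequence that MYC and MAX bind, stood in none of the 3 windows shown and before 1 of the 2 starts of Sms, so in 1 of the 8 genes, against 6.86% of all genes. The TATA sequence TATAAA was in none of the 8 genes' windows and in those of 14.3% of all genes. Both were searched on both strands, and the motifs share no bases in these windows. A match describes letters only. Bases after the start or further upstream were not searched, so a window without a motif does not mean that the gene lacks it.

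Of the 6 measured genes, the synthesis genes Odc1 and Srm fell after TKI258, the breakdown gene Sat1 and the antizyme gene Oaz2 rose, and Smox and Azin1 did not pass the test. The test was limma's moderated linear model over all 19938 genes, two-sided, with Benjamini-Hochberg adjustment and a threshold of 0.05. Thus 4 of 6 passed, 2 in each direction, where 27.0% of all genes passed, 14.4% higher and 12.6% lower. All 6 were bright, with a mean signal above the median over all probe sets. Of the 11215 genes above that median, fitted alone, 5857 passed, and 5 of the 6 did. The median log2 change of the 6 was -0.07 and the median size of change 0.51, against 0.01 and 0.12 over all genes, dim ones included. Since the genes were chosen with results known, these shares only describe them. Arrays of bulk RNA cannot tell fewer cells of a kind from less RNA per cell.

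**Figure D1:**
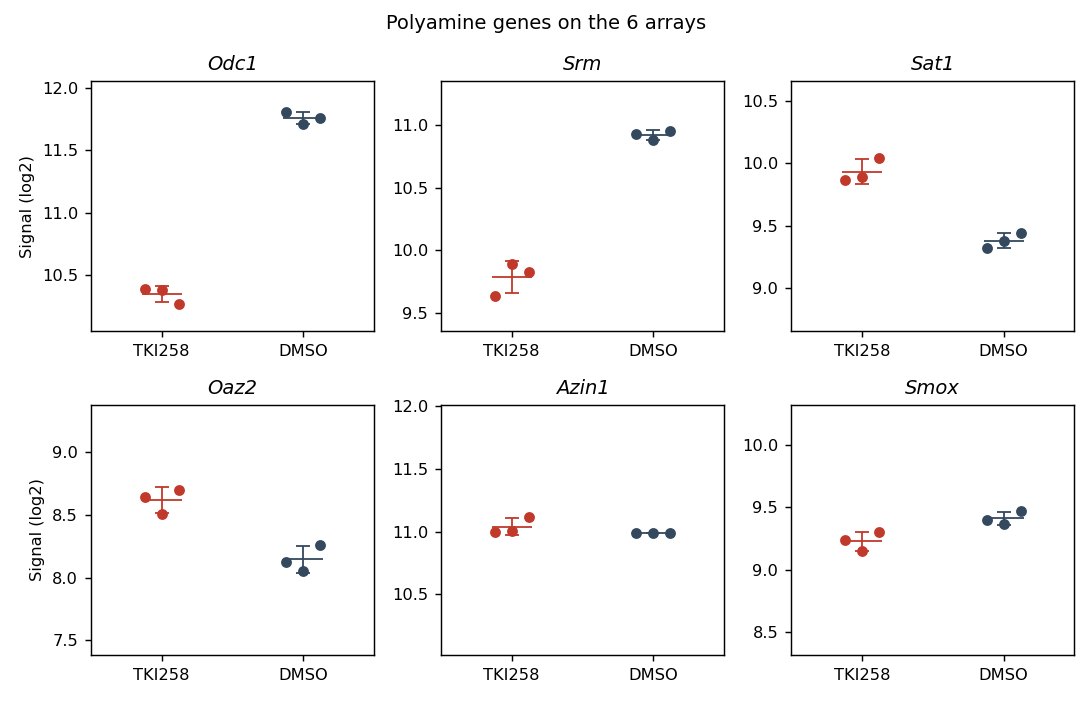
Log2 signal of the 6 measured polyamine genes on each array, TKI258 on the left and DMSO on the right of each panel, with the mean and SD of 3 arrays; every panel spans the same range of log2 units. Odc1 and Srm lie lower in TKI258, Sat1 and Oaz2 higher, and Azin1 and Smox differ little.

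Among the synthesis genes, Odc1 had 10.39, 10.38 and 10.27 log2 units in TKI258 dishes, against 11.80, 11.71 and 11.76 in DMSO dishes. The groups were far apart: the nearest arrays of the 2 groups differed by 1.32, while each group's SD was 0.07 or less. The log2 change was -1.41 (SE 0.07, 95% interval -1.56 to -1.26, limma adjusted p = 1.84e-06), which leaves 37.7% of the DMSO signal on a linear scale. Odc1 ranked 49th of 19938 genes by size of fall. A second probe set annotated to Odc1 alone had 9.71, 9.57 and 9.66 in TKI258 dishes, against 11.07, 11.11 and 11.08 in DMSO dishes. Its log2 change was -1.44 (SE 0.06, adjusted p = 0.000162 in limma over all 35557 probe sets tested singly), so both probe sets of the gene fell by a like amount. In that test of single probe sets 15.8% passed, as did the probe sets of Srm, Sat1 and Oaz2 and not those of Azin1 and Smox.

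Srm, which joins an aminopropyl group to putrescine to give spermidine, had 9.64, 9.89 and 9.83 log2 units in TKI258 dishes, against 10.93, 10.88 and 10.96 in DMSO dishes. The groups did not overlap, and the first TKI258 dish was the lowest of all 6. Srm fell by 1.13 on the log2 scale (SE 0.08, 95% interval -1.31 to -0.96, limma adjusted p = 1.22e-05), to 45.5% of the DMSO signal, and ranked 92nd by size of fall. Leaving out each array in turn gave log2 changes of -1.19 to -1.06 for Srm and of -1.43 to -1.37 for Odc1, all past the threshold.

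Of the breakdown genes, Sat1 had 9.86, 9.89 and 10.04 log2 units in TKI258 dishes, against 9.32, 9.38 and 9.44 in DMSO dishes. All 3 TKI258 arrays were above all 3 DMSO arrays, by at least 0.42. Sat1 rose by 0.55 (SE 0.07, 95% interval 0.39 to 0.72, limma adjusted p = 0.000461), a 1.47-fold higher signal. Smox, the spermine oxidase gene, had 9.23, 9.15 and 9.30 in TKI258 dishes, against 9.40, 9.36 and 9.47 in DMSO dishes. The TKI258 arrays were again on one side, here the lower, with only 0.06 between the nearest arrays of the groups. Its log2 change of -0.18 (SE 0.07, 95% interval -0.34 to -0.03) missed the threshold with a limma adjusted p of 0.0818. The call for Smox depended on the settings: it passed without dim genes, with trend and robust moderation and with array weights, and the adjusted p ran from 0.0268 to 0.231 over 15 alternatives.

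**Figure D2:**
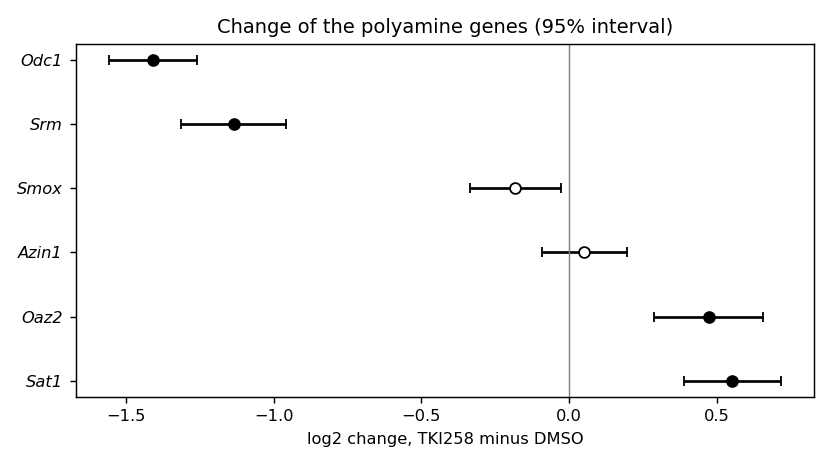
Log2 change, TKI258 minus DMSO, of each measured polyamine gene with its 95% interval from limma; filled points passed an adjusted p of 0.05 and open points did not. Odc1 at -1.41 and Srm at -1.13 lie left of 0, Oaz2 at 0.47 and Sat1 at 0.55 lie right of it.

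Among the regulators of ornithine decarboxylase, the antizyme gene Oaz2 had 8.65, 8.50 and 8.70 log2 units in TKI258 dishes, against 8.12, 8.05 and 8.26 in DMSO dishes. The groups were separate, with 0.24 between the nearest arrays. Oaz2 rose by 0.47 (SE 0.08, 95% interval 0.29 to 0.66, limma adjusted p = 0.00212), a 1.39-fold higher signal. Azin1, the antizyme inhibitor gene, had 11.00, 11.00 and 11.12 in TKI258 dishes, against 10.99, 10.99 and 10.99 in DMSO dishes. The means differed by less than the SD of the TKI258 arrays, with a log2 change of 0.05 (SE 0.06, 95% interval -0.09 to 0.19, limma adjusted p = 0.643). A change of Azin1 larger than 0.19 upward or 0.09 downward lies outside that interval.

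All 6 genes had groups that did not overlap, including Azin1, whose nearest arrays were 0.005 apart, while 40.2% of all genes had no overlap. The spread among dishes of the 6 genes was small, with a residual SD of 0.05 to 0.10 log2 units (median 0.07). The median over all genes, dim ones included, was 0.10. Within the TKI258 group the third dish had the highest signal of Sat1, Oaz2, Azin1 and Smox and the lowest of Odc1, by differences much smaller than the change of Odc1. Centring each array on its median, renewed quantile normalization and averaging the probe sets of each gene left the same 4 genes past the threshold in the same directions.

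**Figure D3:**
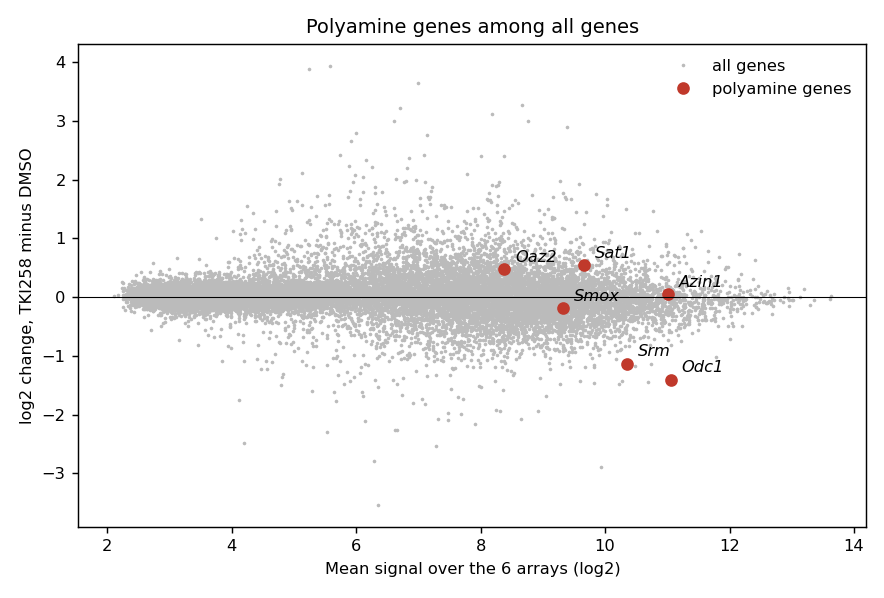
Log2 change, TKI258 minus DMSO, of all 19938 genes against the mean signal over the 6 arrays (log2), with the 6 measured polyamine genes in red. Odc1 and Srm stand at the lower edge of the cloud, at -1.41 and -1.13, and the other 4 lie within it.

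The genes that feed, use or move polyamines, and 4 MYC genes, were followed in 6 lists of 53 genes, of which 47 were measured. Of these 47, 2 rose, 10 fell with Myc among them, and 35 did not pass, so 25.5% passed, close to the 27.0% of all genes. The median log2 change of the 47 was 0.03.

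Spermidine is also the source of hypusine, a modified lysine of the translation factor eIF5A that deoxyhypusine synthase (Dhps) begins and deoxyhypusine hydroxylase (Dohh) finishes. Of the 4 genes of this list 3 fell and 0 rose, so 75% passed, against 27.0% of all genes. All 4 were above the median over all probe sets, and of the 11215 genes above it, fitted alone, 5857 passed. Eif5a had 11.89, 11.95 and 12.02 log2 units in TKI258 dishes, against 12.49, 12.39 and 12.47 in DMSO dishes. Its groups did not overlap, and it fell by 0.50 (SE 0.07, limma adjusted p = 0.00052). Dhps had 7.43, 7.48 and 7.58 in TKI258 dishes, against 7.81, 7.81 and 7.89 in DMSO dishes, a log2 change of -0.34 (SE 0.07, limma adjusted p = 0.00464). Dohh had 7.97, 7.96 and 8.22 in TKI258 dishes, against 8.44, 8.46 and 8.47 in DMSO dishes, a log2 change of -0.40 (SE 0.08, limma adjusted p = 0.00504). For both enzyme genes every TKI258 array was below every DMSO array. Eif5a2, the second eIF5A gene, did not pass, with a log2 change of 0.08 (limma adjusted p = 0.411).

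Of 13 measured genes of arginine, ornithine and agmatine supply, 1 rose and 3 fell, so 30.8% passed, near the 27.0% of all genes. The gene that rose, Azin2, was counted in this list but is known as a regulator of ornithine decarboxylase and not as a supply enzyme, so none of the supply genes proper rose. Azin2, which encodes a second antizyme inhibitor and a relative of ornithine decarboxylase, had 6.97, 6.72 and 7.26 log2 units in TKI258 dishes, against 6.001, 5.97 and 6.05 in DMSO dishes. It rose by 0.98 (SE 0.12, limma adjusted p = 0.000321), with a wider spread in the TKI258 dishes (SD 0.27) than in the DMSO dishes (SD 0.04). Gatm, whose enzyme takes arginine into creatine synthesis and releases ornithine, had 5.92, 5.88 and 6.11 in TKI258 dishes, against 6.90, 6.97 and 6.92 in DMSO dishes. The groups did not overlap, and Gatm fell by 0.96 (SE 0.08, limma adjusted p = 2.75e-05). The arginine importer gene Slc7a1 fell by 0.26 (limma adjusted p = 0.0301) and Slc25a15, which carries ornithine across the mitochondrial inner membrane, fell by 0.28 (limma adjusted p = 0.0333). Both calls were lost without DMSO replicate 1, 2 or 3 or TKI258 replicate 1, at adjusted p of 0.0593 to 0.113 for Slc7a1 and of 0.0720 to 0.0912 for Slc25a15. The arginase genes Arg1 and Arg2, which form ornithine, did not pass, at -0.17 and 0.004. Arg1 was dim, averaging 3.73 over the 6 arrays, where the median over all probe sets was 5.01.

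The methionine cycle and salvage list holds genes that supply S-adenosylmethionine and recover the methylthioadenosine left by Srm and Sms. Mat2a and Ahcy of this list were not measured, so it is covered only in part. Of its 9 measured genes 3 fell and 0 rose, so 33.3% passed, near the 27.0% of all genes. The salvage enzyme gene Enoph1 had 7.52, 7.67 and 7.82 log2 units in TKI258 dishes, against 8.41, 8.33 and 8.45 in DMSO dishes. The groups did not overlap, and Enoph1 fell by 0.73 (SE 0.09, limma adjusted p = 0.000236). The methionine synthase gene Mtr fell by 0.37 (limma adjusted p = 0.00328) and the salvage gene Mri1 by 0.28 (limma adjusted p = 0.0292). The call of Mri1 was lost without DMSO replicate 1, 2 or 3 or TKI258 replicate 1 or 2, at adjusted p of 0.0613 to 0.0984. Mtap, which takes the first step of that salvage, had a log2 change of -0.04 and the homocysteine methyltransferase gene Bhmt one of 0.20 (limma adjusted p = 0.0635), and neither passed.

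Of 9 measured transport genes 1 rose and 0 fell, so 11.1% passed, below the 27.0% of all genes. An unadjusted limma p below 0.05 was reached by 5 of the 9. Atp13a2, which encodes a pump that exports polyamines from lysosomes, had 7.41, 7.22 and 7.40 log2 units in TKI258 dishes, against 6.92, 6.92 and 6.91 in DMSO dishes. Its groups did not overlap, and it rose by 0.43 (SE 0.07, limma adjusted p = 0.00175). Slc18b1, a vesicular polyamine transporter gene, Atp13a4 and the glypican gene Gpc1 had log2 changes of 0.17, -0.23 and 0.19 and did not pass (limma adjusted p = 0.0643, 0.0856 and 0.0871). Atp13a4 passed without DMSO replicate 2 (adjusted p = 0.0425). Of 8 further acetyltransferase, oxidase and antizyme genes 0 passed in limma, and 0 had an unadjusted p below 0.05, with Satl1 at -0.17, Sat2 at 0.28, Aoc2 at -0.13 and Aldh9a1 at 0.08.

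**Figure D4:**
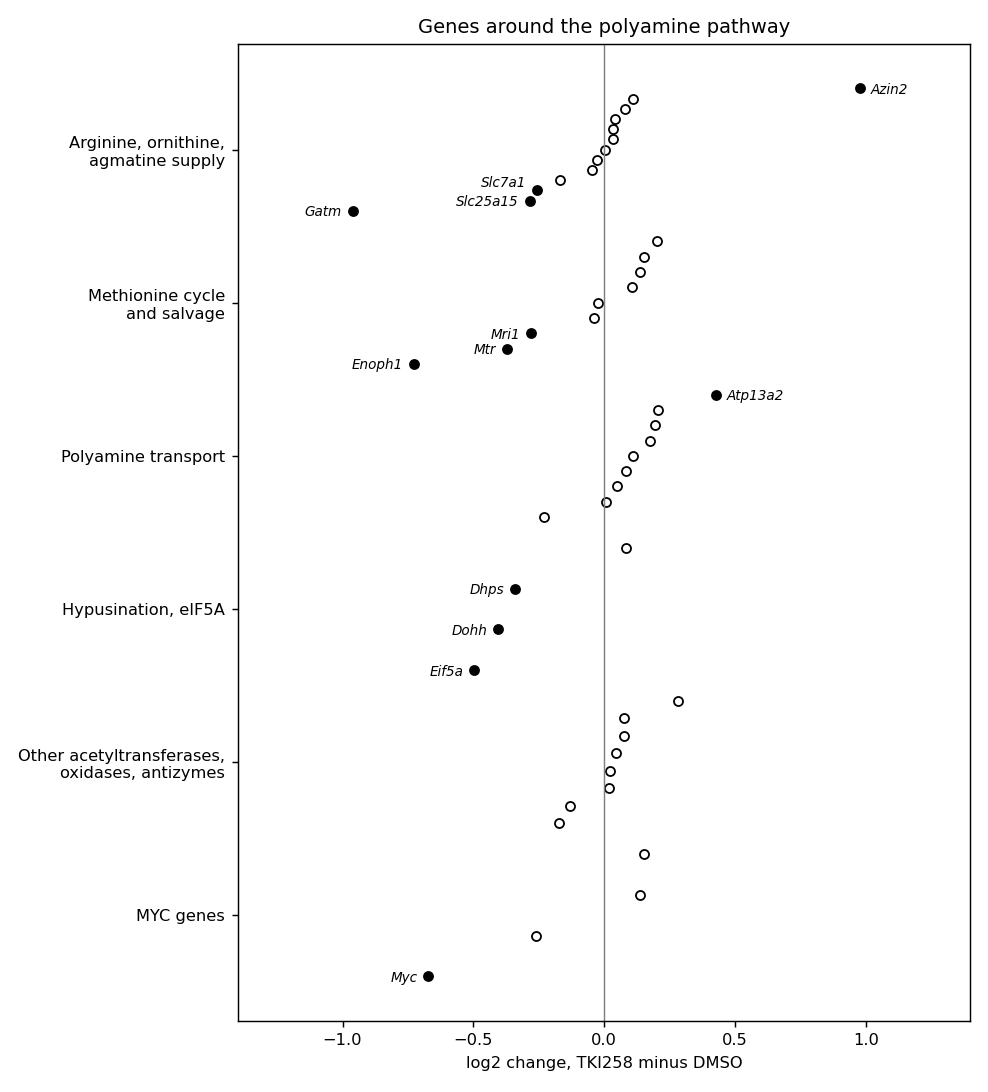
Log2 change, TKI258 minus DMSO, of the 47 measured genes of the 6 lists, 1 point per gene; filled points with names passed a limma adjusted p of 0.05 and open points did not. Eif5a, Dhps and Dohh lie at -0.50 to -0.34, Gatm at -0.96 and Azin2 at 0.98.

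Odc1 is a textbook target of MYC. Of the 4 MYC genes 1 fell and 0 rose, so 25% passed, near the 27.0% of all genes. Myc itself had 10.07, 10.13 and 10.12 log2 units in TKI258 dishes, against 10.76, 10.74 and 10.83 in DMSO dishes. The groups did not overlap, and the log2 change was -0.67 (SE 0.06, limma adjusted p = 6.13e-05). Max, the MYC partner gene, had a log2 change of -0.26 (limma adjusted p = 0.0563) and passed under 5 of 14 alternatives, among them without TKI258 replicate 3 (adjusted p = 0.0196). Mycl at 0.15 and Mycn at 0.14 did not pass.

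Among 18707 other named genes, those nearest to Odc1 over the 6 arrays were Taf4b, Cpb1, Inpp4b, Ercc1 and Btc. Nearness was the root mean square distance between the centred values of 2 genes, and it ran from 0.05 log2 units for Taf4b to 0.07 for Btc. Their log2 changes were -1.42 for Taf4b, a TFIID subunit gene, -1.50 for the carboxypeptidase gene Cpb1, -1.29 for the phosphoinositide phosphatase gene Inpp4b, -1.47 for the excision repair gene Ercc1 and -1.49 for the EGF receptor ligand gene Btc. Cpb1 was dim, averaging 4.04 in TKI258 arrays and 5.54 in DMSO arrays, where the median over all probe sets was 5.01. In the order of nearness Srm stood 54th, at a distance of 0.17, and Myc 410th, at 0.37. This is a description of 6 arrays in 2 groups, in which any gene with a fall of like size comes close.

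Markers were checked against the labelled line. All 10 epithelial markers were measured. The mean over the list was 8.45 to 8.50 log2 units per TKI258 array and 8.21 to 8.27 per DMSO array. Of the 10, 4 rose: Cdh1 at 1.09, Krt19 at 0.94, Cldn4 at 0.89 and Esrp1 at 0.47. Krt18 and Krt7 fell, at -0.50 and -0.39, and Krt8 at -0.11 did not pass. So 60.0% passed, against 27.0% of all genes, and 9 of the 10 were above the median over all probe sets. Of 9 measured leukocyte markers 1 rose (11.1%), Cd68 at 0.82, and the list averaged 4.03 to 4.14 in TKI258 arrays and 3.98 to 4.00 in DMSO arrays, with the common leukocyte marker Ptprc at 3.73 and 3.76. Of 10 fibroblast and endothelial markers Pdgfra and Dcn rose (20.0%) and 0 fell. Pdgfra averaged 9.83 log2 units in TKI258 arrays and 8.33 in DMSO arrays, a log2 change of 1.499 (SE 0.07, limma adjusted p = 1.53e-06). Dcn averaged 5.79 in TKI258 arrays and 3.77 in DMSO arrays, a log2 change of 2.01 (SE 0.22, limma adjusted p = 0.00015). The median log2 change of the 10 was 0.10, with list means of 4.94 to 4.995 in TKI258 arrays and 4.55 to 4.63 in DMSO arrays. Log2 array signals have no true 0, and the part of these shifts in the polyamine results was not tested. Correlations over all genes were 0.997 to 0.998 within groups and 0.988 to 0.990 between them, and no array stood apart.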

How the data were processed

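Each of the 35557 probe sets has 1 log2 signal per array in the deposited table. The submitters' processing notes list RMA, affy and limma with no version or role. Range and near-equal quartiles of the values were read as a log2 scale, which no source used here states. Background subtraction, a common distribution for all arrays and summarising of probes are the usual steps of RMA, and they shrink changes of dim probe sets and remove a shift common to every gene. The median signal of an array was 4.97 to 5.04. Precision is limited by the number of arrays, and the table used here carries no detection calls.

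The platform annotation of 2016 gave 1 symbol to 21789 probe sets, several to 1621 and none to 12147, and only the first kind was used. RefSeq's table (GRCm38.p6, for names alone) held the gene IDs of 21698, and 0 symbols changed. The brightest probe set over the 6 arrays represented each of 19938 genes. The comparison used limma 3.58.1 (R 4.3.3) with treatment as sole term and n = 3 arrays per group, and p-values were adjusted by Benjamini-Hochberg over all genes, with 0.05 as threshold. All 10 polyamine genes were to be named, with up to 4 genes of smallest adjusted p per related list, Myc, and the 5 genes nearest to Odc1. Arg1, Arg2, Mtap and the markers were named after their values were seen. The members and lists were chosen with earlier results of these data known.

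The test was tried on simulated data for TKI258 against DMSO over 19938 genes. It found 5 of 50 genes simulated with a log2 change of 0.25, 43 of those with 0.5, and all 50 of those with 1 or with 2, and made 4 false calls in 152. These 152 calls were far fewer than the 5385 in the data, so the adjusted threshold was stricter than in the real test. Alternatives tried were a replicate block, leaving out each array, median centring, renewed quantile normalization, a filter on dim genes, averaged probe sets, trend and robust moderation, array weights, no moderation, and single probe sets. Promoter windows came from RefSeq, whose gene starts need not be those used in 4T1 cells.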

Additional observations from a re-analysis of the deposited data

How the results depend on the processing

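The count of polyamine genes past the threshold was 4 of 6, and 4 or 5 under all 14 alternatives, the fifth being Smox. Odc1, Srm, Sat1 and Oaz2 kept direction and call in each, also as single probe sets, with highest adjusted p of 0.00183, 0.00431, 0.0121 and 0.0310. The count of all genes past the threshold was 5385 and ran from 4235 to 6022, both ends of that range over 19938 genes. That of related genes was 12 of 47 and ran from 9 of 47 to 17. The 17 came from the fit without dim genes, where 32 related genes were tested and 5857 of all 11215 genes passed. With the arrays centred on their medians 2497 genes were higher and 2622 lower, against 2866 and 2519. The labels state no pairing of same-numbered dishes. Deviations of same-numbered dishes from their group means correlated at 0.02, 0.05 and 0.15, the last being the highest of all pairs of dishes. TKI258 replicate 1 correlated best with DMSO replicate 2 (0.07). With 3 dishes per group these values cannot show whether the dishes were paired. With the replicate number as a block 5364 genes and 4 polyamine genes passed, and of the related genes 13, where Max was added (adjusted p = 0.0318). Leaving out arrays changed the calls of Slc7a1, Slc25a15, Mri1, Atp13a4 and Max among the named genes that were followed. These first 3 calls were also lost without variance moderation (adjusted p = 0.0798, 0.119 and 0.0993), as were those of the markers Krt7 and Cd68 (0.0699 and 0.0567). The markers Cdh1, Krt19, Cldn4, Esrp1 and Krt8 were not followed through the alternatives. Max also passed without dim genes, with trend and robust moderation and with array weights (0.0258, 0.0130 and 0.0349), and Atp13a4 without dim genes (0.0411). Bhmt, Slc18b1 and Gpc1 passed under 3, 2 and 3 alternatives, none of which left out an array. At a simulated log2 change of 0.25 only 5 of 50 genes were found, so a small change, such as one of Smox or Azin1, can be missed. The simulation made 152 calls against 5385 in the data, which makes its adjusted threshold harder to pass. The share it found therefore does not give the power of the real test.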
